A study of Mus musculus with 22 samples.

Results

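The data described here are the levels of 30 messenger RNAs that encode the enzymes of the tricarboxylic acid (TCA) cycle and the enzymes that feed it, in mouse chondrocytes and cartilage that do or do not carry an intact gene for the DNA methyltransferase Dnmt1. The members were chosen by gene name: the pyruvate dehydrogenase complex, the enzymes of the cycle itself, the enzymes through which glutamate, aspartate and malate enter it, and the cytosolic partners of the mitochondrial enzymes. All 30 were found among the 34866 gene identifiers of the culture tables and among the 23911 of the cartilage table, and all 30 passed the filter on low counts in each comparison. The series held 22 samples in 6 groups. Primary chondrocytes from knee articular cartilage carried either a floxed Dnmt1 gene (control) or Prrx1-Cre with floxed Dnmt1 on both alleles (cKO), and were kept in medium with fetal bovine serum. They were sampled untreated, called day 0 here (3 control and 3 cKO samples), or after 3 days with bone morphogenetic protein 2 (BMP2), called day 3 (4 control and 4 cKO samples), a growth factor used to drive chondrocyte differentiation. Cartilage came from mice at postnatal day 5 and was treated with collagenase (4 control and 4 cKO samples, in each genotype 2 male and 2 female). No untreated day 3 culture was among the samples, so BMP2 and culture time cannot be told apart. Prrx1 is active in limb mesenchyme, the common source of limb cartilage, bone, tendon and connective tissue, so a Cre under its promoter is not restricted to chondrocytes. The labels gave the cultures as biological replicates and did not tie them to animals.

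The level of Dnmt1 followed the labels. In CPM, counts scaled to the size of each library, it was 151 ± 6.61 (SD, n = 3) in control and 27.8 ± 3.09 (n = 3) in cKO cultures at day 0, 70.8 ± 8.63 and 26.6 ± 11.8 at day 3 (n = 4 each), and 42.5 ± 6.18 and 13.2 ± 1.09 in cartilage (n = 4 each), with no overlap between the genotypes. Total counts per library were 41749360 to 51741520 at day 0, 14434211 to 18918732 at day 3 and 1100198 to 1888896 in cartilage, so the cartilage libraries were the least precise. All 10 chondrocyte markers (Col2a1, Acan and others) were detected in every group. Their summed level was lower in cKO than in control samples in each setting: 52500 to 63900 against 147000 to 155000 CPM at day 0, 1800 to 18600 against 102000 to 125000 at day 3, and 34800 to 64800 against 71700 to 106000 in cartilage. All 10 were called lower at each culture day, where 31.6% (day 0) and 22.6% (day 3) of all genes were. In cartilage 3 of the 10 were called lower, where 3.04% of all genes were. The summed level of 10 skeletal muscle markers was higher in cKO samples: 71.3 to 76.0 against 12.2 to 13.8 CPM at day 0, 165 to 2140 against 1.69 to 2.23 at day 3, and 58.9 to 91.0 against 12.8 to 17.3 in cartilage. Only 6 of these markers passed the filter on low counts at day 0, 8 at day 3 and 2 in cartilage. In cKO cultures Myl1 was at 0 at day 0 and Myf5 at day 3. In control cultures Myf5 and Myod1 were at 0 at day 0, and Actc1 and Myf5 at day 3. In cartilage Ckm and Myod1 were at 0 in both genotypes, Myh3 in control and Myf5 and Myog in cKO samples. One cKO library at day 3, replicate 4, stood apart from the other 3 of its group: its chondrocyte marker sum was 1800 CPM against 13200 to 18600, its skeletal muscle sum was 165 against 1270 to 2140 CPM, its osteoclast sum was 381 against 99.8 to 117 CPM, and its leukocyte sum was 25.9 against 11.5 to 12.6 CPM. The share of counts from mitochondrially encoded genes was higher in cKO cultures. It was 1.86% to 2.14% against 1.55% to 1.72% at day 0 and 2.65% to 2.82% against 2.13% to 2.32% at day 3. In cartilage these shares overlapped, at 9.43% to 11.8% in cKO and 6.22% to 14.7% in control libraries. Of 8 fibroblast and tendon markers 7 were called lower and 1 higher at day 0, where 31.6% and 33% of all genes were. Their sums were 2880 to 3530 CPM in cKO and 4960 to 7260 CPM in control cultures. At day 3, 0 of 7 tested were lower and 3 higher, where 22.6% and 25.5% of all genes were. Those sums were 13600 to 14800 CPM in cKO and 11700 to 13500 CPM in control cultures. In cartilage 0 of 8 were called, where 6.19% of all genes were, with overlapping sums. The part of these shifts in the results below was not tested, and in such samples a change in the mix of cells and a change in RNA per cell cannot be told apart. Several results of the members that rest on replicate 4 are given with and without it. Log2 changes of genes outside the members are given with it alone.

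The TCA cycle oxidises acetyl groups in the mitochondrial matrix and hands electrons to the respiratory chain. Pyruvate enters it through the pyruvate dehydrogenase complex as acetyl-CoA, and glutamine carbon enters as oxoglutarate. Intermediates also leave it: citrate that is exported and cleaved in the cytosol gives acetyl-CoA for lipids and for histone acetylation, and oxoglutarate is a substrate of the collagen prolyl hydroxylases and of enzymes that remove methyl groups from DNA and histones. Cartilage has no vessels of its own and its chondrocytes are known for a strongly glycolytic metabolism.

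Dnmt1 copies methylation at CpG sites when DNA is replicated, so the CpG content of the members' promoters is shown first; methylation itself was not measured in these files. RefSeq promoter windows (build GRCm38.p6, 250 bases before to 50 bases after a start) were matched by symbol for 27 of the 30 members. Idh3a, Me2 and Sdhc had none. Counting the window with the most sites for each gene, the members held 13 to 51 CpG sites with a median of 21, and the 17491 protein-coding genes with a window had a median of 15. A window of over 55% GC and an observed to expected CpG ratio over 0.65 was found for 18 members (66.7%) and for 40.8% of protein-coding genes. The 6 members with a window that were higher in cKO cultures at both days had a median of 21 sites (18 to 37), the 5 that were lower at both days had 20 (14 to 23), and the 6 called at neither day had 23 (17 to 35). The windows of these sets overlapped in CpG number. The promoters of 3 members that were lower at both days and of 1 that was higher at both are printed, since these members carry the main results. Each line gives the 250 bases before the RefSeq start, 5′ to 3′ on the gene's strand, with CpG sites in capitals: Idh1 (chr1:65186480-65186729, minus strand, 18 sites), Mdh1 (chr11:21571935-21572184, minus strand, 17 sites), Sdhb (chr4:140961021-140961270, plus strand, 9 sites) and Acly (chr11:100528001-100528250, minus strand, 14 sites).
Idh1: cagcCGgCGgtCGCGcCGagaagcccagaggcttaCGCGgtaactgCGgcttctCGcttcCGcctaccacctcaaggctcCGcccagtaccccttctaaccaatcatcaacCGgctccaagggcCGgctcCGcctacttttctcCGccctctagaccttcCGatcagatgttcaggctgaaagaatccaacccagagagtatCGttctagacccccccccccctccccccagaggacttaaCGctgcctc
Mdh1: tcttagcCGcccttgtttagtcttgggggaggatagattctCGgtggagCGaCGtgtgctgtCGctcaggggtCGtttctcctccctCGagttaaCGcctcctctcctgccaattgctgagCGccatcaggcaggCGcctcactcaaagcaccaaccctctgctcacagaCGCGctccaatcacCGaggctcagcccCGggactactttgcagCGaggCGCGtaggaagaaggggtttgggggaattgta
Sdhb: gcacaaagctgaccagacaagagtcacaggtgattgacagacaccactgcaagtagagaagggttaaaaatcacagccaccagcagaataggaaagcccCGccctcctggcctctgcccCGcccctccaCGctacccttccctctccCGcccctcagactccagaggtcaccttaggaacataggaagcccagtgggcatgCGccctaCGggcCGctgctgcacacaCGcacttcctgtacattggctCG
Acly: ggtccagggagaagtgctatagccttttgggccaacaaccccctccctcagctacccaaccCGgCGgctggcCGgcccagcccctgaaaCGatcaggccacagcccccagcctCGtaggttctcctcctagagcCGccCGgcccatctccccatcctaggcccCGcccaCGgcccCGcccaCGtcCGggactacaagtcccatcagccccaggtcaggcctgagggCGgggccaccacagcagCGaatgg
The sites of Idh1 were spread along most of the printed stretch, while the stretch of Sdhb furthest from the start held none. Motifs were searched on both strands of the whole 300 base windows. The letters GCATGCG, the core of the motif of NRF1, a factor that binds promoters of nuclear genes for mitochondrial proteins, occurred in 4 members (Glud1, Ogdh, Pdhb and Sdhb), which is 14.8% of those with a window, and in 4.95% of protein-coding genes. The nuclear receptor half-site AAGGTCA occurred in 3 members (Got1, Ogdh and Sdhd, 11.1%) and in 4.73% of protein-coding genes, and the E-box CACGTG in 1 member (Ogdh, 3.7%) and in 8.91%. A gene counted once if any of its windows held the letters, overlap between motifs was not removed, and Ogdh, with 6 windows, held all 3.

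The 30 transcripts were all expressed. On the TPM scale, which corrects for exon length, group means of the members in control cultures ran from 19.6 (Pdhx) to 233 (Me1) at day 0 and from 9.40 (Me2) to 232 (Mdh1) at day 3. Me1, Sdhd, Pdha1 and Mdh2 were the 4 highest in control cultures at day 0, at 233 ± 3.71, 206 ± 5.74, 198 ± 8.69 and 196 ± 4.27 TPM (SD, n = 3). Within this order the neighbours Sdhd and Pdha1, and Pdha1 and Mdh2, did not differ beyond their spread. The same 4 were highest in cKO cultures at day 0. Pdhx and Me2 were the lowest in all 4 culture groups. Levels below are CPM scaled by TMM factors within each day or tissue, so they compare genotypes and not genes.

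At day 0, 22 of the 30 transcripts differed between genotypes: 10 were higher and 12 lower in cKO than in control cultures (edgeR quasi-likelihood test, adjusted p under 0.05). Of all 15530 genes tested, 64.5% were called (33% higher and 31.6% lower), so a call was the common outcome at this depth and the count of members is read against that. Changes were small: the median log2 fold change of cKO over control, called log2 change below, of the members was -0.07 against 0.01 over all genes, and the median absolute value was 0.19 against 0.34. At day 3, 14 of 30 were called, 9 higher and 5 lower, where 48.1% of 13924 genes were called (25.5% higher and 22.6% lower). The median log2 change of the members was 0.07, against 0.01 for all genes, and the median absolute value 0.20 against 0.37. In cartilage 0 of 30 were called, where 6.19% of 8793 genes were called (3.15% higher and 3.04% lower). The groups did not overlap for 25 members at day 0, 14 at day 3 and 1 in cartilage, where over all genes tested 70.3%, 47.9% and 13.5% did not overlap. The 12 members called at both days had the same direction at both: Acly, Cs, Dlat, Dlst, Got2, Me2 and Ogdh were higher, and Aco1, Idh1, Idh2, Mdh1 and Sdhb were lower in cKO cultures. Over all genes tested at both days, 36.2% were called at both in the same direction, and of the genes called at both 93.4% had the same direction, so 12 of 30 is near the background share. At day 0 the calls of Acly (adjusted p = 0.0708), Cs (0.11), Dlst (0.124) and Idh2 (0.348) were lost when all 14 culture samples were fitted together. The 2 days were sampled from different libraries.

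**Figure D1:**
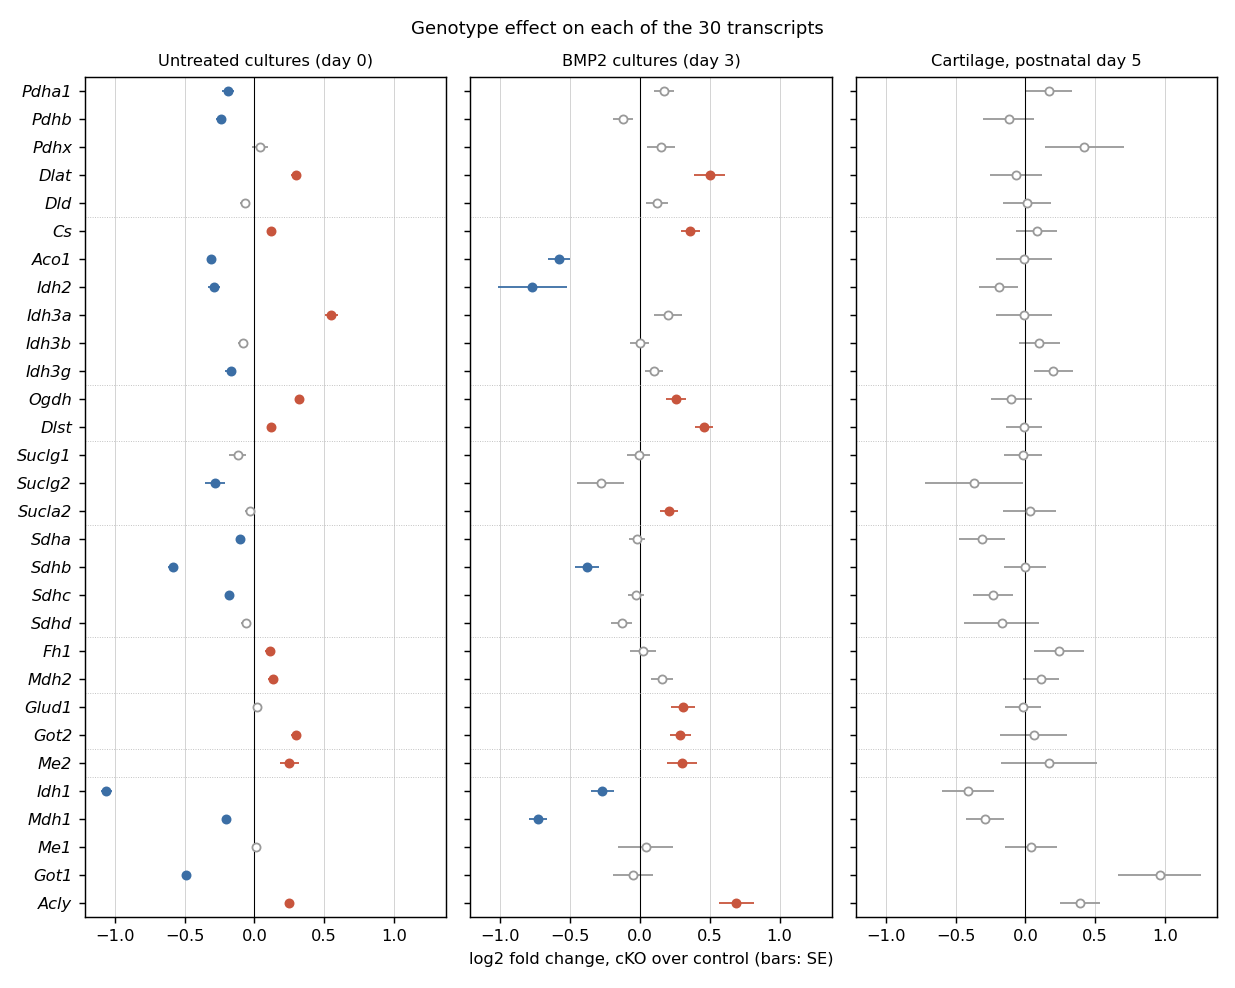
Log2 change (cKO over control, bars SE) of the 30 transcripts at day 0, at day 3 and in cartilage, in the order of the pathway with dotted lines between enzyme groups. Filled points were called (red higher, blue lower) and open points were not; the 12 transcripts filled at both culture days lie on the same side of 0, and no point in cartilage is filled.

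The pyruvate dehydrogenase complex did not move as a unit. Its E2 core, Dlat, rose in cKO cultures, while its E1 subunits Pdha1 and Pdhb fell at day 0. Dlat read 63.5, 65.8 and 68.0 CPM in the control and 82.5, 79.2 and 81.3 CPM in the cKO libraries of day 0. At day 3 Dlat read 57.0, 50.7, 48.95 and 49.4 CPM in control and 63.6, 79.1, 63.3 and 84.6 CPM in cKO libraries. Every cKO library lay above every control library on both days, with log2 changes of 0.30 ± 0.0361 (SE, adjusted p = 7.53e-05) and 0.50 ± 0.111 (adjusted p = 0.00642). Pdha1, the catalytic alpha subunit, read 213, 194 and 197 CPM in control and 171, 184 and 175 CPM in cKO libraries at day 0, and 179 to 194 against 198 to 227 CPM at day 3. It had a log2 change of -0.19 at day 0 (adjusted p = 0.00392) and 0.17 at day 3 (adjusted p = 0.077, with cKO above control in every library). The genotype effect on Pdha1 differed between the days by 0.34 ± 0.0876 (adjusted p = 0.0196), and this call was lost in 3 of 14 fits that left out 1 library each (control replicate 1, cKO replicate 1 or cKO replicate 3 of day 0). An exon stretch of 603 bases, 16.1% of the exons of Pdha1, overlaps Map3k15 on the other strand, and whether the counting used strand is not given in the sources used here. Pdhb fell by 0.24 on the log2 scale at day 0 (adjusted p = 0.000201) and was at -0.12 on that scale at day 3 (adjusted p = 0.197; called without control replicate 3). Pdhx, which tethers the E3 subunit, and Dld, the E3 subunit shared with oxoglutarate dehydrogenase, were called at neither day.

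Citrate synthase (Cs), which condenses acetyl-CoA with oxaloacetate, was higher in cKO cultures at both days. It read 187, 182 and 184 CPM in control and 201, 199 and 199.9 CPM in cKO libraries at day 0, a log2 change of 0.12 ± 0.0270 (adjusted p = 0.00408). In the day 3 libraries it read 128, 118, 117 and 127 CPM in control and 145, 155, 161 and 167 CPM in cKO libraries, a log2 change of 0.36 ± 0.0689 (adjusted p = 0.00298). The groups were apart at both days. Aco1, the cytosolic aconitase that also acts as an iron regulatory protein, went the other way. Its levels were 74.7, 71.5 and 72.7 CPM in control and 58.5, 59.1 and 58.9 CPM in cKO libraries at day 0, and 73.8, 76.2, 70.3 and 75.4 against 46.1, 51.2, 55.4 and 45.0 CPM at day 3. No libraries overlapped, and the log2 changes were -0.31 ± 0.0322 (adjusted p = 2.93e-05) and -0.58 ± 0.0787 (adjusted p = 0.000526).

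The isocitrate dehydrogenases did not move together. Idh2, the mitochondrial NADP-dependent enzyme, fell, and of the 3 subunits of the NAD-dependent enzyme Idh3a rose, Idh3g fell and Idh3b was not called at day 0. Idh2 read 83.5, 81.3 and 78.6 CPM in control and 68.4, 68.0 and 62.2 CPM in cKO libraries at day 0 (log2 change -0.29 ± 0.0442, adjusted p = 0.000312). The day 3 values were 109, 113, 115 and 107 CPM in control and 79.4, 73.2, 75.4 and 32.0 CPM in cKO libraries, so the groups were apart and replicate 4 was by far the lowest. The log2 change at day 3 was -0.77 ± 0.247 (adjusted p = 0.0306). It was -0.55 (adjusted p = 5.16e-05) without cKO replicate 4, and the call was lost when any 1 of the 4 control libraries was left out. Idh3a had the largest rise of the members at day 0: 74.2, 70.0 and 74.6 CPM in control and 103, 103 and 115 CPM in cKO libraries, a log2 change of 0.55 ± 0.0483 (adjusted p = 1.03e-05). At day 3 its groups overlapped, at 53.5 to 62.1 CPM in control and 56.8 to 76.1 CPM in cKO libraries, and its log2 change of 0.20 was not called (adjusted p = 0.133). Idh3g fell by 0.17 on the log2 scale at day 0 (adjusted p = 0.0038) and was not called at day 3 (log2 change 0.10, adjusted p = 0.248). The subunits of this enzyme thus had different signs within the same libraries of day 0.

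Of the oxoglutarate dehydrogenase complex, the E1 and E2 subunits rose at both days, while the shared E3 subunit Dld was called at neither. Ogdh, the E1 subunit, read 123, 123 and 127 CPM in control and 156, 151 and 159 CPM in cKO libraries at day 0 (log2 change 0.32 ± 0.0307, adjusted p = 1.73e-05). It read, at day 3, 126, 125, 125 and 116 CPM in control and 139, 138, 148 and 163 CPM in cKO libraries (0.26 ± 0.0725, adjusted p = 0.0183), and this call was lost without control replicate 4. Dlst, its E2 core, read 130.3, 125 and 123 CPM in control and 138, 135 and 138 CPM in cKO libraries at day 0, a small rise of 0.12 ± 0.0307 (adjusted p = 0.00747) that was lost without control replicate 2 or 3. At day 3 the rise was 0.46 ± 0.0653 (adjusted p = 0.000625), from 113, 104, 101 and 101 CPM in control to 142, 154, 141 and 141 CPM in cKO libraries. The genotype effect on Dlst was larger at day 3 by 0.33 ± 0.0808 (adjusted p = 0.0159), a call lost without control replicate 1 of day 0.

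Succinyl-CoA ligase, which makes GTP or ATP according to its beta subunit, had 1 call at each day. Suclg2, the GTP-forming beta subunit, fell at day 0 by 0.28 on the log2 scale (adjusted p = 0.00787), from 48.1, 45.8 and 44.7 CPM in control to 39.7, 41.0 and 33.6 CPM in cKO libraries. Sucla2, the ATP-forming beta subunit, was not called at day 0 (log2 change -0.03) and rose by 0.21 ± 0.0635 at day 3 (adjusted p = 0.023), a call lost in 3 of 8 fits that left out 1 library (control replicate 2 or 4, or cKO replicate 2). The shared alpha subunit Suclg1 was called at neither day. In cKO replicate 4 of day 3 Suclg2 read 28.9 CPM, against 47.4 to 49.3 in the other 3 cKO libraries and 46.0 to 57.9 in control, and its log2 change of -0.28 was -0.13 without that library, not called either way.

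Succinate dehydrogenase, which is also complex II of the respiratory chain, fell in 3 of its 4 subunits at day 0. Sdhb, the iron-sulfur subunit, moved furthest: 105, 103 and 102 CPM in control and 68.0, 72.2 and 66.6 CPM in cKO libraries, a log2 change of -0.58 ± 0.0362 (adjusted p = 1.24e-06). At day 3 Sdhb read 72.0, 69.0, 65.7 and 83.1 CPM in control and 57.9, 58.5, 56.8 and 50.4 CPM in cKO libraries, a log2 change of -0.38 ± 0.0882 (adjusted p = 0.008). The groups were apart at both days, and Sdhb kept its call in each fit that left out 1 library. The flavoprotein Sdha had a log2 change of -0.10 (adjusted p = 0.00985) and the membrane anchor Sdhc one of -0.18 (adjusted p = 0.000738) at day 0. At day 3 neither was called, with log2 changes of -0.02 and -0.03. Sdhd, the other anchor, was called at neither day.

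The closing steps of the cycle, fumarase (Fh1) and mitochondrial malate dehydrogenase (Mdh2), rose by small amounts at day 0. The log2 change was 0.11 ± 0.0356 for Fh1 (adjusted p = 0.027), a call lost in 4 of 6 fits without 1 library (control replicate 2 or 3, or cKO replicate 1 or 3), and 0.13 ± 0.0352 for Mdh2 (adjusted p = 0.00893), lost without control replicate 2. Neither was called at day 3. Of the enzymes that bring in amino acid carbon, Got2, the mitochondrial aspartate aminotransferase, rose at both days. Its levels were 116, 118 and 111 CPM in control and 146, 136 and 143 CPM in cKO libraries at day 0 (log2 change 0.30 ± 0.0369, adjusted p = 9.32e-05), and 118, 109, 106 and 115 against 126, 136, 138 and 149 CPM at day 3 (0.29 ± 0.0723, adjusted p = 0.0102). No libraries overlapped. Got2 has an annotated processed pseudogene, Got2-ps1, with which reads could be shared. A stretch of 434 bases, 9.0% of the exons of Got2, also overlaps Gm45760 on the other strand. Shorter overlaps with genes on the other strand were found for Mdh1 (52 bases, 2.03%), Me1 (30 bases, 0.78%) and Idh3b (5 bases, 0.146%). Glutamate dehydrogenase (Glud1) was not called at day 0 (log2 change 0.02) and rose by 0.31 ± 0.0866 at day 3 (adjusted p = 0.0165), a call lost without control replicate 2 or 4. Me2, the mitochondrial malic enzyme that turns malate into pyruvate, rose by 0.25 ± 0.0698 at day 0 (adjusted p = 0.011), lost without control replicate 2, and by 0.30 ± 0.105 at day 3 (adjusted p = 0.0412). Its levels were 41.3, 37.0 and 38.3 CPM in control and 51.3, 43.6 and 44.0 CPM in cKO libraries at day 0. At day 3 they were 21.6, 19.8, 17.2 and 18.99 against 22.4, 21.5, 24.8 and 27.1 CPM, where the groups overlapped slightly. The day 3 call of Me2 was lost in 6 of 8 fits without 1 library (all but control replicate 1 and cKO replicate 2).

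The largest change of day 0 was in a cytosolic partner, Idh1, while at day 3 Idh2 (-0.77) and Mdh1 (-0.73) were largest in size, at -0.55 and -0.70 without cKO replicate 4. Idh1, which makes NADPH and oxoglutarate in the cytosol, read 79.6, 83.0 and 82.6 CPM in control and 38.2, 40.3 and 39.2 CPM in cKO libraries at day 0. All 3 cKO libraries were far below the controls, with a log2 change of -1.06 ± 0.0369 (adjusted p = 4.35e-08). At day 3 Idh1 read 84.0, 76.5, 74.5 and 90.9 CPM in control and 64.1, 70.6, 63.2 and 72.0 CPM in cKO libraries, still apart but close, with a log2 change of -0.27 ± 0.0829 (adjusted p = 0.0251). That call was lost in 4 of 8 fits without 1 library (control replicate 1 or 4, or cKO replicate 1 or 3). Mdh1, the cytosolic malate dehydrogenase of the malate-aspartate shuttle, showed the reverse order of the days: 96.5, 93.1 and 94.0 CPM in control against 80.6, 84.9 and 80.8 CPM in cKO libraries at day 0 (-0.20 ± 0.0328, adjusted p = 0.000488). At day 3 it read 162, 170.0, 167 and 179 CPM in control against 101, 105, 108 and 95.5 CPM in cKO libraries (-0.73 ± 0.0654, adjusted p = 6.68e-05). These differences between days passed the test of the difference itself, at 0.77 ± 0.102 for Idh1 (adjusted p = 0.000461) and -0.54 ± 0.0813 for Mdh1 (adjusted p = 0.000966), and neither was lost when any 1 of the 14 libraries was removed.

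Got1, the cytosolic aspartate aminotransferase of the same shuttle, fell at day 0 from 96.5, 96.2 and 99.1 CPM in control to 69.5, 68.2 and 70.3 CPM in cKO libraries (log2 change -0.49 ± 0.0298, adjusted p = 1.13e-06). At day 3 its groups overlapped, at 48.6 to 69.7 CPM in control and 51.3 to 74.1 CPM in cKO libraries, and it was not called (-0.05, adjusted p = 0.781). Acly, which cleaves exported citrate to acetyl-CoA, rose at both days. It read 164, 172 and 165 CPM in control and 203, 192 and 202 CPM in cKO libraries at day 0 (0.25 ± 0.0343, adjusted p = 0.000167). By day 3 the values were 141, 146, 149 and 154 CPM in control and 219, 224, 203 and 303 CPM in cKO libraries, the largest rise of the members at that day (0.69 ± 0.124, adjusted p = 0.00219; 0.54 without cKO replicate 4, adjusted p = 7.96e-05). Me1, the cytosolic malic enzyme, was not called at either day. At day 3 it read 270 CPM in cKO replicate 4 and 146 to 153 in the other 3 cKO libraries, against 160.3 to 185 in control, and without replicate 4 its log2 change went from 0.04 (adjusted p = 0.893) to -0.23 (adjusted p = 0.0133).

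**Figure D2:**
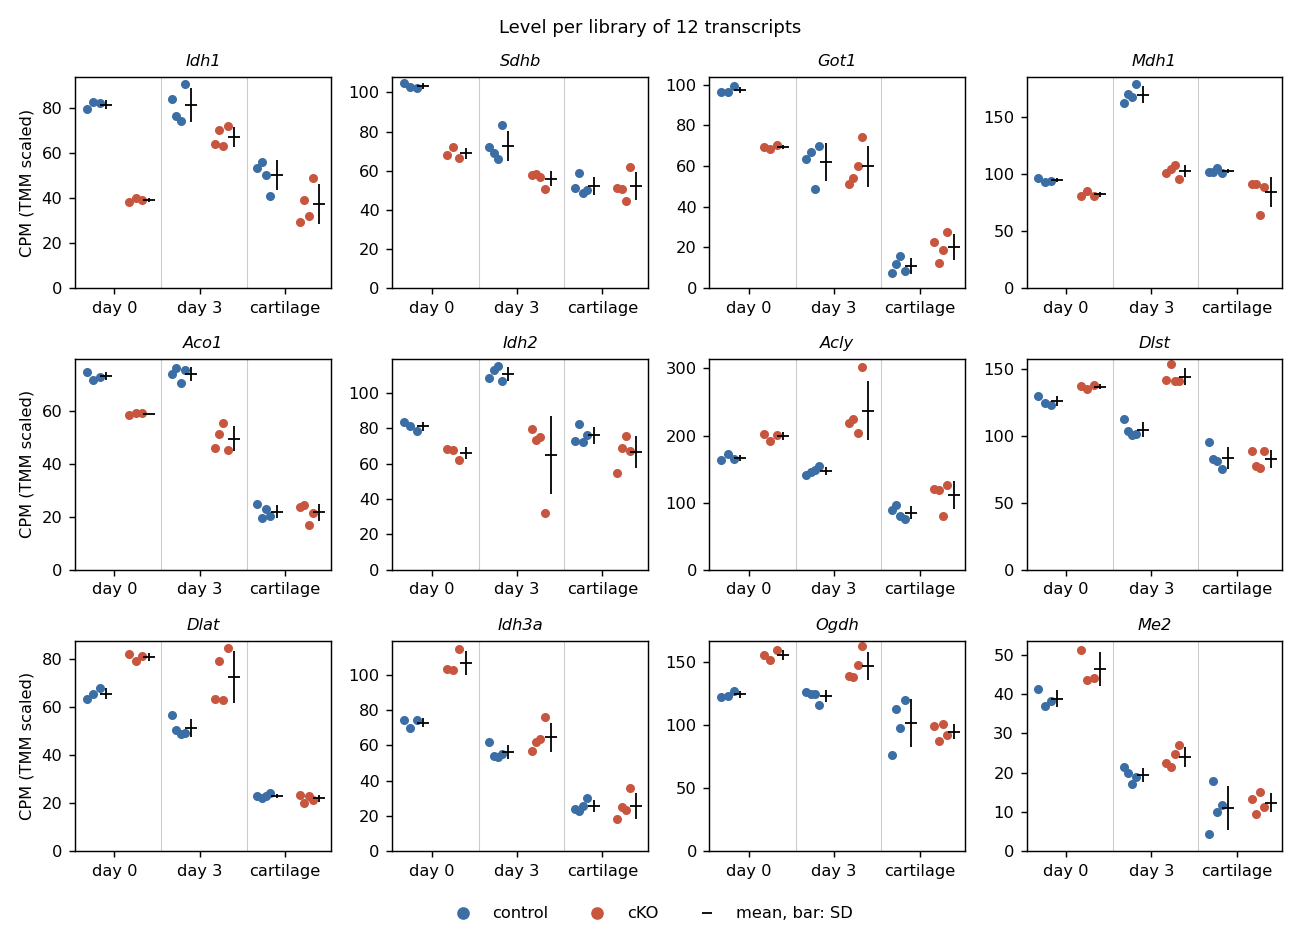
CPM of 12 transcripts in each library (points; control blue, cKO red) at day 0, at day 3 and in cartilage, with the mean and SD beside them; each setting was scaled on its own. Idh1 at day 0 and Mdh1 at day 3 show the widest gaps among the transcripts that were lower, and the single low Idh2 point (32.0 CPM) and the single high Acly point (303 CPM) at day 3 are both cKO replicate 4.

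Within a library the ratio of 2 partner transcripts does not depend on the scaling. Ratios are log2 of counts, with an offset of 0.5, and are given as descriptions. The ratio of cytosolic to mitochondrial malate dehydrogenase, Mdh1 to Mdh2, was -1.01, -0.99 and -1.02 in control and -1.36, -1.35 and -1.32 in cKO libraries at day 0. At day 3 it was 0.16, 0.43, 0.46 and 0.34 in control and -0.55, -0.54, -0.53 and -0.57 in cKO libraries. In cartilage it was 0.32, 0.04, 0.12 and 0.10 in control and 0.00, -0.29, -0.61 and -0.17 in cKO libraries. The cKO libraries were below the control libraries in all 3 settings, by 0.34, 0.89 and 0.41 on average, although in cartilage the estimated-count table gave overlapping groups with a difference of -0.43. Aco1 to Cs was lower in cKO libraries by 0.43 at day 0 and by 0.94 at day 3 without overlap, at -0.63 to -0.79 in control and -1.54 to -1.89 in cKO libraries of day 3, and overlapped in cartilage. Suclg2 to Sucla2 was lower by 0.26 at day 0 and by 0.51 at day 3, also without overlap. At day 3 cKO replicate 4 was at -1.20 and the other 3 cKO libraries at -0.55 to -0.32, and without it the difference was -0.32. Got1 to Got2 was lower by 0.79 at day 0 (-0.16 to -0.30 in control, -0.99 to -1.07 in cKO libraries), and its groups overlapped at day 3 and in cartilage, where the difference was 0.83. Me1 to Me2 was lower by 0.24 at day 0 and overlapped elsewhere. At day 3 both of these pairs overlapped through cKO replicate 4 alone: Me1 to Me2 was 3.32 in it, 2.59 to 2.77 in the other 3 cKO libraries and 3.07 to 3.28 in control, and Got1 to Got2 was -1.01 in it, -1.33 to -1.20 in the others and -1.13 to -0.71 in control. The differences at day 3 were -0.31 and -0.35 with that library and -0.46 and -0.41 without it. Idh1 to Idh2 was lower by 0.76 at day 0. At day 3 it overlapped, with a difference of 0.59, which was 0.24 without cKO replicate 4.

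**Figure D3:**
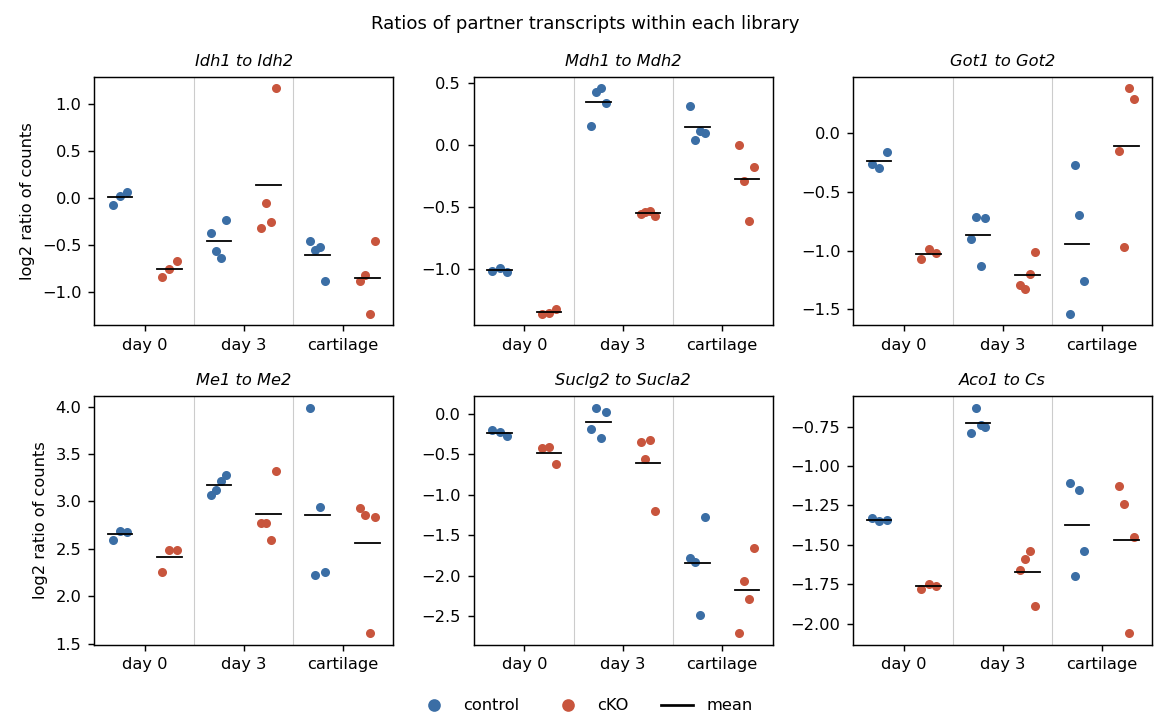
Log2 ratio of the counts of 6 pairs of partner transcripts in each library (points; control blue, cKO red; lines are means). Mdh1 to Mdh2 is the pair in which the cKO points lie below all control points at day 0, at day 3 and in cartilage, and the cKO point at 1.17 in the Idh1 to Idh2 panel at day 3 is replicate 4.

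The change from day 0 to day 3 was tested within each genotype on all 14 culture samples. In control cultures 18 of 30 members fell, 2 rose and 10 were not called, where 56.9% of 14909 genes were called (28.8% lower and 28.1% higher). In cKO cultures 17 fell, 5 rose and 8 were not called, where 62.2% were called (29.8% lower and 32.4% higher). The members' median log2 change was -0.27 in control and -0.18 in cKO cultures, against 0.00 and 0.02 over all genes. Lower calls therefore made up 18 of 20 called members in control cultures and 17 of 22 in cKO cultures, while over all genes the directions were near balance. Day, BMP2, the deposited table and the depth changed together and cannot be told apart. A set of 14 members fell in both genotypes: Cs, Dlat, Dld, Fh1, Glud1, Got1, Idh3a, Idh3g, Mdh2, Me1, Me2, Pdhx, Sdhb and Suclg1. The share of all genes that fell in both genotypes was not counted, so this number is not read as a result about the members. Of these, Me1 had a log2 change of -0.58 in cKO cultures, and of -0.82 without cKO replicate 4 of day 3. Leaving out 1 library ended a call in that set for Fh1 in control cultures (4 of 7 fits: replicates 1 and 2 of day 0, 2 and 3 of day 3) and, in cKO cultures, for Got1 (5 of 7: all of day 0, replicates 1 and 2 of day 3), Idh3g (4 of 7: all of day 0, replicate 4 of day 3) and Dlat (2 of 7: replicates 1 and 3 of day 0). Outside that set, such fits ended the call of Acly (6 of 7) and Pdhb (5 of 7) in control cultures. In cKO cultures they ended that of Sucla2 (3 of 7) and Got2 (2 of 7), and Pdha1 is given below. Idh2 was higher in every control library of day 3 than of day 0 (log2 change 0.35) but was not called (adjusted p = 0.197). The fit of the 7 control samples alone called it (0.36, adjusted p = 0.000196).

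Me2 fell furthest, from 40.5 ± 2.28 CPM (SD, n = 3) to 18.9 ± 1.81 (n = 4) in control and from 48.3 ± 4.47 to 23.0 ± 2.07 in cKO cultures, with all culture libraries on 1 scale (log2 change -1.10 ± 0.0920, adjusted p = 8.08e-07, and -1.07 ± 0.0910, adjusted p = 8.27e-07). Cs fell from 192 ± 2.88 to 119 ± 5.91 CPM in control (log2 change -0.69) and from 209 ± 0.969 to 151 ± 7.62 CPM in cKO cultures (-0.47). Mdh2 had log2 changes of -0.61 and -0.60. On the scale of each day it read 195, 185 and 191 CPM in control and 207, 216 and 202 CPM in cKO libraries of day 0, and 121 to 145 and 142 to 155 CPM at day 3. Mdh1 and Sdhc rose in both genotypes. Sdhc, the membrane anchor, read 72.5, 71.5 and 71.8 CPM in control and 62.2, 64.3 and 64.0 CPM in cKO libraries of day 0, and 89.5 to 98.2 and 87.9 to 95.3 CPM at day 3 (log2 changes of 0.29 and 0.42). Mdh1 went from 98.5 ± 1.86 to 165 ± 7.17 CPM in control (log2 change 0.74 ± 0.0583, adjusted p = 4.72e-07) and from 85.8 ± 2.49 to 98.5 ± 6.37 CPM in cKO cultures (0.20 ± 0.0577, adjusted p = 0.00877). The direction of Mdh1 was therefore opposite to that of Mdh2 in the same libraries. Idh1 was called in cKO cultures alone, from 41.0 ± 1.08 to 65.0 ± 4.03 CPM (0.67 ± 0.0730, adjusted p = 6.76e-06), against 85.2 ± 1.92 and 79.3 ± 7.48 CPM in control (-0.10, adjusted p = 0.241). Pdha1 was called in opposite directions, at -0.18 in control and 0.15 in cKO cultures. The first of these was lost without control replicate 1 of day 0 or 4 of day 3, and the second without any 1 of 5 libraries (each cKO library of day 0, and cKO replicate 2 or 3 of day 3).

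**Figure D4:**
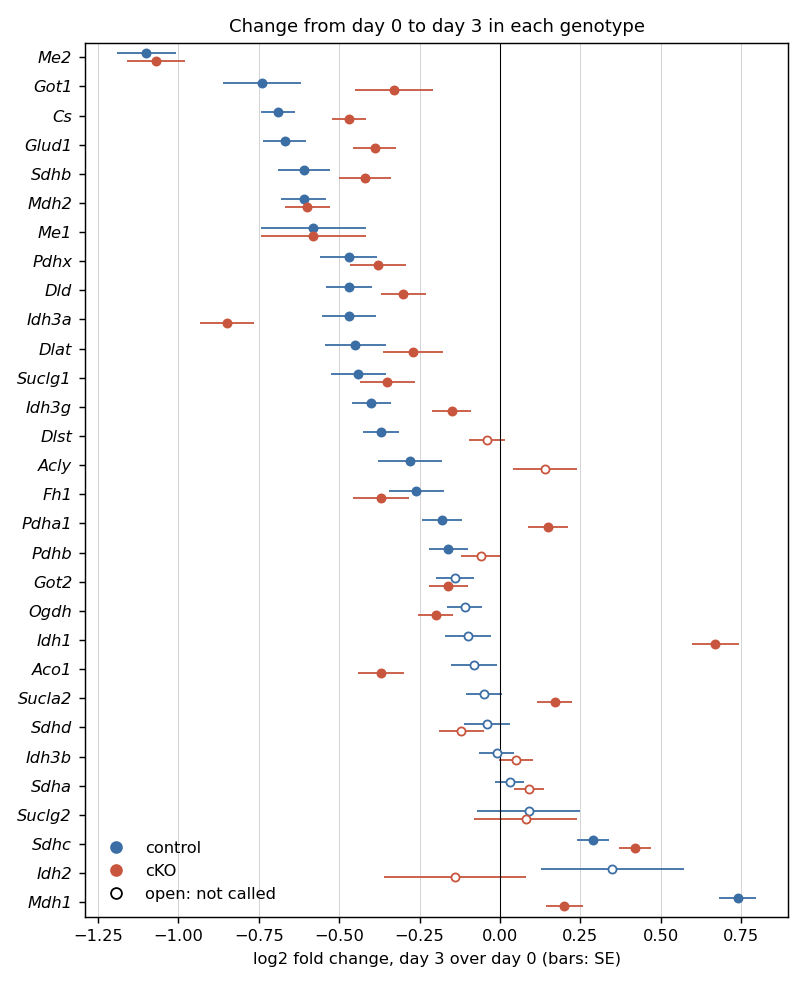
Log2 change from day 0 to day 3 (bars SE) of the 30 transcripts in control (blue) and cKO (red) cultures, ordered by the change in control; filled points were called. Of the 30 points, 25 lie below 0 in control and 21 in cKO cultures, and the genotypes part most for Idh1 (-0.10 and 0.67) and Mdh1 (0.74 and 0.20).

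The genotype effect differed between the days for 5 of the 30 members, where 16.8% of 14909 genes were called. The difference, day 3 minus day 0, was positive for 3 members and negative for 2, where 9.93% and 6.89% of all genes were called in these directions. It was positive for Idh1, Pdha1 and Dlst and negative for Mdh1 and Idh3a. This is not the sign at day 3 itself, where Idh1 was still lower in cKO cultures (-0.27) and Idh3a was not called (0.20). For Idh3a the difference was -0.37 ± 0.120 (adjusted p = 0.0498) and was lost in 12 of 14 fits without 1 library, all but those without control replicate 3 or cKO replicate 4 of day 3. Without cKO replicate 4 of day 3 the count was 11, with 7 positive and 4 negative differences. Without control replicate 1 of day 0 it was 2, Idh1 and Mdh1. The number of all genes called also changed between such fits, so neither count is read as a result about the members.

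In cartilage none of the 30 members was called by edgeR; 4 had an unadjusted p under 0.05, and DESeq2 called 0, with 2 under that unadjusted p. Counts per member and library ran from 4 to 233, and the members' median standard error was 0.169 on the log2 scale, against 0.0353 at day 0 and 0.0782 at day 3. The share of all genes under that unadjusted p was not counted, so the number is not read as a result about the members. The 4 with a low unadjusted p were cytosolic partners. Got1 read 7.51, 11.95, 15.6 and 8.24 CPM in control and 22.7, 12.2, 18.7 and 27.6 CPM in cKO libraries, a log2 change of 0.96 ± 0.297 (adjusted p = 0.0692) with overlapping groups. It was called without cKO replicate 2 (1.12, adjusted p = 0.0318) and with no filter on low counts (0.92, adjusted p = 0.021), and its adjusted p ran from 0.0318 to 0.248 over fits without 1 library. Acly read 88.6, 96.4, 79.8 and 75.7 CPM in control and 120.1, 119, 80.3 and 126 CPM in cKO libraries, 0.39 ± 0.144 (adjusted p = 0.127). Only without cKO replicate 3, the low library, was Acly called (0.50, adjusted p = 0.0412). Idh1 read 53.3, 56.3, 50.5 and 41.2 CPM in control and 29.4, 39.4, 32.1 and 49.1 CPM in cKO libraries, -0.41 ± 0.184 (adjusted p = 0.21), where 1 cKO library lay among the controls. Mdh1 read 102, 102, 106 and 101 CPM in control and 91.5, 91.0, 64.2 and 88.7 CPM in cKO libraries, -0.29 ± 0.136 (adjusted p = 0.226), and was the member whose groups did not overlap. Without cKO replicate 3, its low library and the one with the lowest chondrocyte marker sum of its group, Mdh1 was at -0.18 (adjusted p = 0.449).

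The signs of Acly, Idh1 and Mdh1 in cartilage were those of the cultures, and the sign of Got1 was the opposite of that at day 0, but none of these cartilage values passed the test. The other 26 members had log2 changes from -0.37 (Suclg2) to 0.42 (Pdhx). Among those called at both culture days, Dlat (-0.07), Dlst (-0.01) and Ogdh (-0.10) had the sign opposite to the cultures. Cs (0.08), Got2 (0.06), Me2 (0.17), Aco1 (-0.01) and Idh2 (-0.19) had the same sign. Sdhb, 0.58 lower on the log2 scale in cKO cultures at day 0, had a log2 change of 0.00 ± 0.15 in cartilage, at 51.0, 58.9, 48.6 and 49.9 CPM in control and 51.2, 50.7, 44.6 and 62.0 CPM in cKO libraries. All control libraries of cartilage lay in library pool 1 and all cKO libraries in pool 2, so pool and genotype cannot be told apart. The cKO cartilage libraries also had lower sums of 7 erythroid markers (13.4 to 389 against 167 to 917 CPM) and of 8 osteoclast markers (59.6 to 119 against 126 to 458 CPM). The osteoclast marker Calcr was at 0 in both genotypes. The part of these cells in the cartilage values was not tested.

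The genes around the cycle were taken from 4 lists of 46 genes that are not members. Nnt was listed under 2 gene identifiers and was left out, so 45 were used. Of the 44 tested in the cultures, 9 were higher and 22 lower in cKO cultures at day 0, and 4 higher and 18 lower at day 3. Over all genes 33% were higher and 31.6% lower at day 0, and 25.5% and 22.6% at day 3. In cartilage 27 were tested, 2 higher and 0 lower, where 3.15% and 3.04% of all genes were called in these directions. The counts of the single lists below stand against the same shares. For pyruvate entry and its regulation, 2 of 11 were higher and 6 lower at each of the culture days. For glutamine and amino acid entry, 3 of 12 were higher and 7 lower at day 0, and 0 higher and 6 lower at day 3. Mitochondrial carriers had 2 of 6 higher and 2 lower at day 0 and 1 higher and 2 lower at day 3, and cycle enzymes and cofactors outside the members had 2 of 15 higher and 7 lower at day 0 and 1 higher and 4 lower at day 3.

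Slc1a5, the main plasma membrane carrier of glutamine, was 323 ± 11.7 CPM (SD, n = 3) in control and 159 ± 8.86 in cKO cultures at day 0 (log2 change -1.02 ± 0.0459, adjusted p = 2.06e-07), and 238 ± 51.6 and 53.3 ± 21.5 CPM (n = 4 each) at day 3 (-2.15 ± 0.324, adjusted p = 0.00088). Pycr1, which makes proline from a glutamate product, fell with log2 changes of -1.19 at day 0 (140.5 ± 3.95 to 61.5 ± 6.12 CPM) and -1.92 at day 3 (159 ± 21.4 to 42.1 ± 8.95 CPM). Gpt2, the mitochondrial alanine aminotransferase that turns glutamate into oxoglutarate, fell with log2 changes of -1.0 at day 0 and -1.36 at day 3 (120.2 ± 15.4 to 46.9 ± 5.13 CPM). In cartilage Gpt2 was higher in cKO samples, at 27.2 ± 5.72 against 12.96 ± 2.001 CPM (1.02 ± 0.227, adjusted p = 0.0131, lost without control replicate 1 or cKO replicate 1). Asns, asparagine synthetase, was also higher in cKO cartilage, at 113 ± 10.8 against 54.1 ± 8.52 CPM (1.07 ± 0.134, adjusted p = 8.71e-05), and lower in cKO cultures (-0.33 at day 0 and -0.69 at day 3). The difference between culture and tissue was not tested, since the library methods differ.

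Among the regulators of pyruvate dehydrogenase, whose kinases switch the complex off and whose phosphatases switch it on, Pdk1 fell at day 0 from 81.9 ± 1.52 to 37.7 ± 6.04 CPM (log2 change -1.12 ± 0.0981, adjusted p = 1e-05). Pdk4 was higher in cKO cultures, at 2.63 ± 0.924 against 0.956 ± 0.221 CPM at day 0 (1.47 ± 0.278) and 19.4 ± 8.88 against 3.16 ± 1.16 CPM at day 3 (2.62 ± 0.367, adjusted p = 0.000626). The phosphatase Pdp1 was higher at day 3 (1.36 ± 0.406, adjusted p = 0.0232) with overlapping groups, and this call was lost in 5 of 8 fits without 1 library (control replicates 1 and 4, cKO replicates 1, 2 and 3). The mitochondrial glutaminase Gls2 (1.33) and glutamine synthetase Glul (0.86) were called higher at day 0, Gls2 at a mean of only 0.858 CPM in control, and neither at day 3. Ogdhl, a relative of Ogdh, was higher at day 3 (0.74 ± 0.107, adjusted p = 0.000687). Several of these genes moved by more than any of the 30 members, whose genotype effect did not exceed 1.06 in size on the log2 scale in the cultures.

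**Figure D5:**
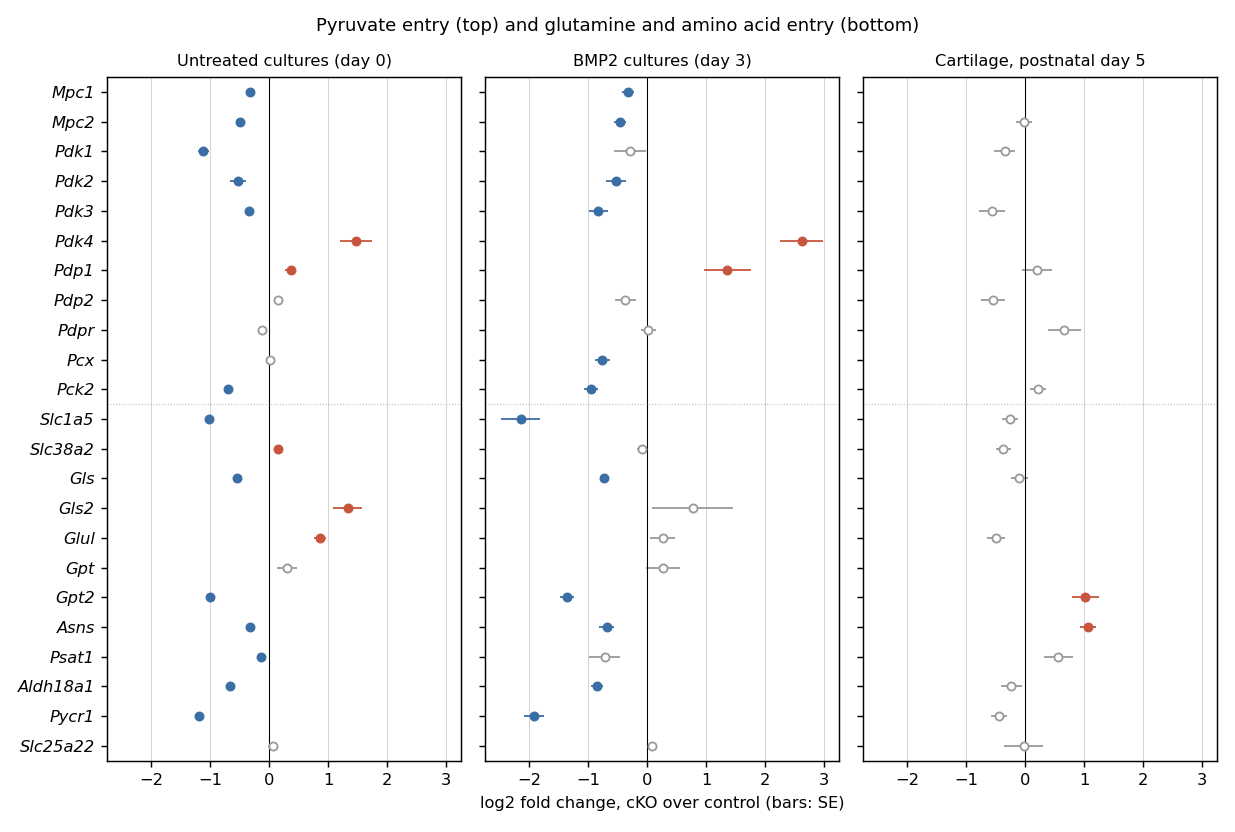
Log2 change (cKO over control, bars SE) of genes of pyruvate entry and its regulation (above the dotted line) and of glutamine and amino acid entry (below it) at day 0, at day 3 and in cartilage; filled points were called (red higher, blue lower), and a gene without a point was not tested. Slc1a5 and Pycr1 lie furthest to the left at day 3 (-2.15 and -1.92), while Gpt2 and Asns are the called points to the right in cartilage (1.02 and 1.07).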

How the data were processed

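RNA was sequenced from 14 chondrocyte cultures (stranded kit) and 8 cartilage samples (barcoded 3′ libraries with molecular identifiers), per the labels' protocols. For the cultures the tables the authors deposited hold estimated counts, rounded here. For cartilage they hold whole-number counts, used here, and estimated counts, an alternative. For cartilage the submitters' processing notes name the build GRCm38, UMI-tools 1.1.1, Trim Galore 0.6.7, HISAT2 2.2.1, featureCounts 2.0.1 and DESeq2 1.34.0. Which tool made which table, and whether molecular identifiers were collapsed, is not given in the sources used here.

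For each culture day, and for cartilage with sex as a covariate, genotypes were compared with edgeR 4.0.16 (R 4.3.3, quasi-likelihood test). Scaling was TMM, and filterByExpr kept genes by a minimum of 10 counts and a total of 15. P-values were adjusted by Benjamini-Hochberg across the table, and under 0.05 counts as called. SE is the size of the log2 change over the root of F. One fit of all 14 culture samples gave the changes from day 0 to day 3 and the difference of the genotype effects between days. TPM used union exon lengths of GENCODE M21. The fits were tested on simulated data. All replicate pairs differed by more than sampling noise, at 3.53 to 138 chi-square units per degree of freedom. This does not show that they came from separate animals. Each library counted as 1 sample. P-values measure the spread between these samples. Counts of reads cover counting error only.

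The members and gene lists were chosen with earlier results of these data known. Every member is accounted for. Library values are given for up to 3 higher and 3 lower called members per comparison by absolute log2 fold change, for members called in the same direction in at least 2 genotype comparisons and for partner pairs without overlap; values of other members beyond these were added after they were seen. From the surrounding lists, up to 3 called higher and 3 called lower genes per genotype comparison are named. Alternatives were DESeq2 1.42.0, RLE scaling, no filter, a replicate block, a joint or a single genotype fit, no sex term, the estimated counts and leaving out each library. Columns left unused: 0. Which erythroid markers were at 0 is not reported here.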

Additional observations from a re-analysis of the deposited data

Results flagged for a closer look

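In groups of 4 libraries, a single library of a member was set apart by Dixon's test at its 95% critical value in 11 of 120 combinations of member and group, where chance gives about 1 in 20, or 6. Of these, 4 were cKO replicate 4 of day 3: Idh2 at 32.0 CPM against 73.2 to 79.4 in the other 3 libraries, Suclg2 at 28.9 against 47.4 to 49.3, Me1 at 270 against 146 to 153, and Pdhb at 68.9 against 65.4 to 65.9. This was also the library with the lowest chondrocyte marker sum. Cs, Glud1 and Acly did not meet this test in it.

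In other day 3 libraries, Pdha1 was 179 CPM in control replicate 4 against 192 to 194, Ogdh 116 in the same library against 125 to 126, Sucla2 53.2 in control replicate 2 against 56.6 to 57.1, and Dlst 154 in cKO replicate 2 against 141 to 142. In cKO cartilage, Mdh1 was 64.2 CPM and Acly 80.3 CPM in replicate 3, against 88.7 to 91.5 and 119 to 126, and Sdhd was 16.6 CPM in replicate 2 against 37.0 to 41.0.

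The genotype effect differed between day 0 and day 3 by a test of the difference itself (log2, day 3 minus day 0) for Idh1 (0.77, adjusted p = 0.000461), Mdh1 (-0.54, adjusted p = 0.000966), Dlst (0.33, adjusted p = 0.0159), Pdha1 (0.34, adjusted p = 0.0196) and Idh3a (-0.37, adjusted p = 0.0498), by edgeR on 14 samples.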

How the results depend on the processing

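At day 0 the fit of all 14 culture samples called 13 members (5 higher) and 6260 genes; Cs, Idh2, Idh3g, Dlst, Suclg2, Sdha, Fh1, Mdh2 and Acly were lost. At day 3 it called 15 in place of 14. In cartilage no filter on low counts called 1 member (1 higher) and 1044 genes. For the change in cKO cultures, no filter and the fit of the 7 cKO samples alone each left 3 members higher. For the difference between days, DESeq2 called 11 members (8 higher), and RLE scaling, no filter and the replicate block each left 1 lower. The share of all genes called by DESeq2 is not given here, so its count is not read as a result about the members. The replicate block also cut the members higher at day 3 from 9 to 5 (Ogdh, Sucla2, Glud1 and Me2 were lost) and genes called from 6692 to 5392. Replicate numbers were not taken to pair samples, as same-numbered libraries had correlations of -0.145 to 0.14 in the cultures and -0.0819 to 0.265 in cartilage.

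Leaving out 1 library gave 6 to 10 members higher at day 0 with a median of -0.08 to -0.05, and 8 to 14 called at day 3 (5 to 9 higher, 3 to 6 lower), with 8 without control replicate 4. It gave 0 to 1 called in cartilage (0 to 1 higher, 362 to 630 genes) and 3 to 7 higher in cKO cultures over time with a median of -0.24 to -0.18. For the difference between days it gave 2 to 11 called (1 to 7 higher, 1 to 4 lower, 1591 to 4051 genes). Without cKO replicate 4 of day 3, Me1 changed sign, to -0.23 at day 3 (adjusted p = 0.0133) and -0.25 for the difference between days (adjusted p = 0.0231). Over all such fits Me1 ran from -0.23 to 0.12 and from -0.25 to 0.08. The cause was not tested.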

Other observations

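The 2 deposited cartilage tables gave different levels for some members from the same libraries. Suclg2 was 9.22 ± 3.12 CPM (SD, n = 4) in control cartilage by whole-number counts and 37.5 ± 9.41 CPM by estimated counts, while its partner Sucla2 was 32.8 ± 3.51 and 28.5 ± 2.67 CPM. The mean log2 ratio of Suclg2 to Sucla2 in control cartilage was therefore -1.84 in one table and 0.36 in the other. Got2 was 20.7 ± 4.72 CPM by whole-number and 45.3 ± 5.04 CPM by estimated counts, with Got1 at 10.8 ± 3.73 and 8.76 ± 2.5 CPM. The log2 fold change (cKO over control) was -0.37 by whole-number and -0.35 by estimated counts for Suclg2, and 0.06 and -0.13 for Got2, whose sign turned. Both tables called 0 of the 30 members.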
